A study of Mus musculus with 4 samples.

Results

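The MHC class I presentation genes were followed in single cells sorted for tdTomato from the spinal cord of injured and uninjured mice. The members were taken by name from the gene rows of both matrices: B2m, H2-K1, H2-D1, H2-T23, Tap1, Tap2, Tapbp, Psmb8, Psmb9 and Nlrc5. All 10 were found among 32287 gene features. The mice carried Cx30-driven recombination of a tdTomato reporter that was switched on with tamoxifen, in which astrocytes are labelled, and had received a pool of enhancer viruses in the blood. They entered the study at 8 to 12 weeks of age. Injured cords were sampled at 3 days after the injury. By the study's general statement on its sequencing, 1 or 2 animals of each sex were pooled per condition. Its methods describe segments of 5 mm, at the same level in uninjured cords, for the joint RNA and chromatin experiment. Tamoxifen, the reporter and the virus pool were shared by both conditions. There was 1 gene expression library per condition, so no difference between conditions has a replicate check, and every interval below covers counting error only.

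MHC class I molecules display peptides from inside the cell on its surface, where CD8 T cells and natural killer cells read them. Proteasomes cut the peptides, and the immunoproteasome subunits Psmb8 and Psmb9 replace constitutive subunits when immune signals call for it. The transporter formed by Tap1 and Tap2 moves peptides into the endoplasmic reticulum, where tapasin, the product of Tapbp, holds empty class I molecules close to it. The classical heavy chains H2-K1 and H2-D1 and the non-classical chain H2-T23, which makes Qa-1, pair with B2m, the beta-2 microglobulin light chain. Nlrc5 is a transactivator that acts at class I gene promoters. In the healthy nervous system class I levels are known to be low in neurons and glia, and interferons raise them.

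By the GENCODE annotation on GRCm38, all members are protein-coding genes, of which 8 lie on chromosome 17. The 2 classical chains are at chr17:33996017-34000347 (H2-K1, minus strand) and chr17:35262730-35267499 (H2-D1, plus strand). H2-T23 is at chr17:36029773-36032855 on the minus strand and Tapbp at chr17:33915899-33929292 on the plus strand. The transporter and immunoproteasome genes sit together, with Psmb9 at chr17:34181987-34187764 on the minus strand, followed on the plus strand by Tap1 at chr17:34187553-34197225, Psmb8 at chr17:34197721-34201454 and Tap2 at chr17:34203527-34216321. B2m is at chr2:122147686-122153083 and Nlrc5 at chr8:94434356-94527272, both on the plus strand. The annotated Tap1 and Psmb9 genes overlap each other on opposite strands, and 6 more members overlap another gene (B2m with Patl2, H2-T23 with A930015D03Rik, Tap2 with Gm20496 and Gm15821, Psmb8 with Gm20496, Tapbp with Zbtb22 and Gm19412, Nlrc5 with Mir7072 and 9330175E14Rik). Zbtb22 and Mir7072 lie on the strand of their member, and the other overlapping genes on the opposite strand. Whether counting used the strand was not given, so reads in these overlaps are uncertain. Only H2-K1 and H2-D1 overlap no other annotated gene.

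RefSeq promoter windows on GRCm38 were found for 8 of the 10 members, all except Tap2 and Nlrc5. The 250 bases before the first listed transcription start of B2m and H2-K1 are shown because these members are compared throughout. Capitals mark matches to the motifs searched on both strands: GAAANNGAA (interferon response element core), TTCNNNGAA (STAT site), GGGATTNCC (NF-kB site), TGACGC (X2 box) and CCAAT (Y box).
B2m, chr2:122147437-122147686, plus strand: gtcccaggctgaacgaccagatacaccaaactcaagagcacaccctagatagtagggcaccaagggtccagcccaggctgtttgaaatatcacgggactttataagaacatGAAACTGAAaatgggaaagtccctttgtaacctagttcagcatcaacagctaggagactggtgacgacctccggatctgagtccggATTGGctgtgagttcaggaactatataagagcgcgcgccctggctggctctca
H2-K1, chr17:34000348-34000597, minus strand: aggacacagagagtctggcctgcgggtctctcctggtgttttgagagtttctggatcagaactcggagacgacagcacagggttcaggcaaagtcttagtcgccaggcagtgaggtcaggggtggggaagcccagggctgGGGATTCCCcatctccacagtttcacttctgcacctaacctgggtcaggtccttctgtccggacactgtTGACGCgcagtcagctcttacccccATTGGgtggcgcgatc
The B2m window held the interferon element, which 7.13% of 32851 windows of this length held, and a reversed Y box. The H2-K1 window held the NF-kB site, the X2 box and a reversed Y box, which 0.822%, 6.12% and 33.8% of windows held. H2-D1 had the same motifs, and the matches of both genes with 10 bases on each side are set together to show how alike the paired genes are.
H2-K1, NF-kB site, chr17:34000439-34000467: cccagggctgGGGATTCCCcatctccaca
H2-D1, NF-kB site, chr17:35262914-35262942: cccagggctgGGGATTCCCcatctcctca
H2-K1, X2 box, chr17:34000373-34000398: cggacactgtTGACGCgcagtcagct
H2-D1, X2 box, chr17:35262983-35263008: gggacactgaTGACGCgctggcaggt
Lined up on the NF-kB match with no gap, the H2-K1 and H2-D1 windows matched at 166 of 190 bases (87.4%). Of the 8 members with a window, the interferon element was found in 2 (B2m and H2-T23), the NF-kB site and the X2 box in 2 each (H2-K1 and H2-D1), the STAT site in 1 (Psmb8) and the Y box in 7, all except Psmb8. These are matches of letters and were not tested as binding sites. The H2-D1 matches shown and the H2-T23 interferon element lie before the listed RefSeq start but inside the gene as placed by GENCODE. A single spelling was searched for each motif, so a window without a match may hold the element in another spelling, interferon response elements of H2-K1 and H2-D1 included.

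After the filter on cells, the injured library held 879 cells with a median of 6816 UMIs (unique molecular identifiers, each counting 1 captured molecule) and the uninjured library 4159 cells with a median of 3343. The members were left out of clustering, so they did not shape the cell classes. Cells were named from marker genes as astrocyte-like (414 injured and 3421 uninjured), microglia-like (126 and 31), ependymal-like (144 and 31), endothelial-like (70 and 26), fibroblast-like (43 and 95), oligodendrocyte precursor-like (OPC-like, 46 and 14) and mural-like (13 and 3). A cluster with astrocyte markers but neuronal leading genes stayed unnamed (23 cells or 2.62% of injured, 538 cells or 12.9% of uninjured). All 8 astrocyte markers were found in the astrocyte-like cells of both libraries. Of injured cells 250 were scored female and 315 male, but of uninjured cells only 2 were scored female and 2770 male. This goes against the study's methods, which pool both sexes. Values for male cells are therefore given where they move the astrocyte-like comparison between libraries. The libraries shared 7 cell barcodes.

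Across the injured library, the summed level of the members was highest in microglia-like and endothelial-like cells and lowest in ependymal-like cells among named classes of at least 20 cells (3263, 2784 and 362 CPM). For single members the lowest class varied, with OPC-like cells last for H2-K1, Tap1, Tapbp and Nlrc5 and astrocyte-like cells last for H2-T23. Levels are CPM, the UMIs of a gene summed over the cells of a class per 1000000 gene UMIs of that class, with exact Poisson 95% intervals. B2m stood at 1332 CPM in microglia-like cells (1281 to 1385), 761 in endothelial-like, 302 in fibroblast-like, 223 in astrocyte-like (204 to 243), 189 in OPC-like and 55.5 in ependymal-like cells (44.8 to 67.9). Each step in this order was larger than the counting error, except that astrocyte-like and OPC-like cells did not differ beyond it.

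**Figure D1:**
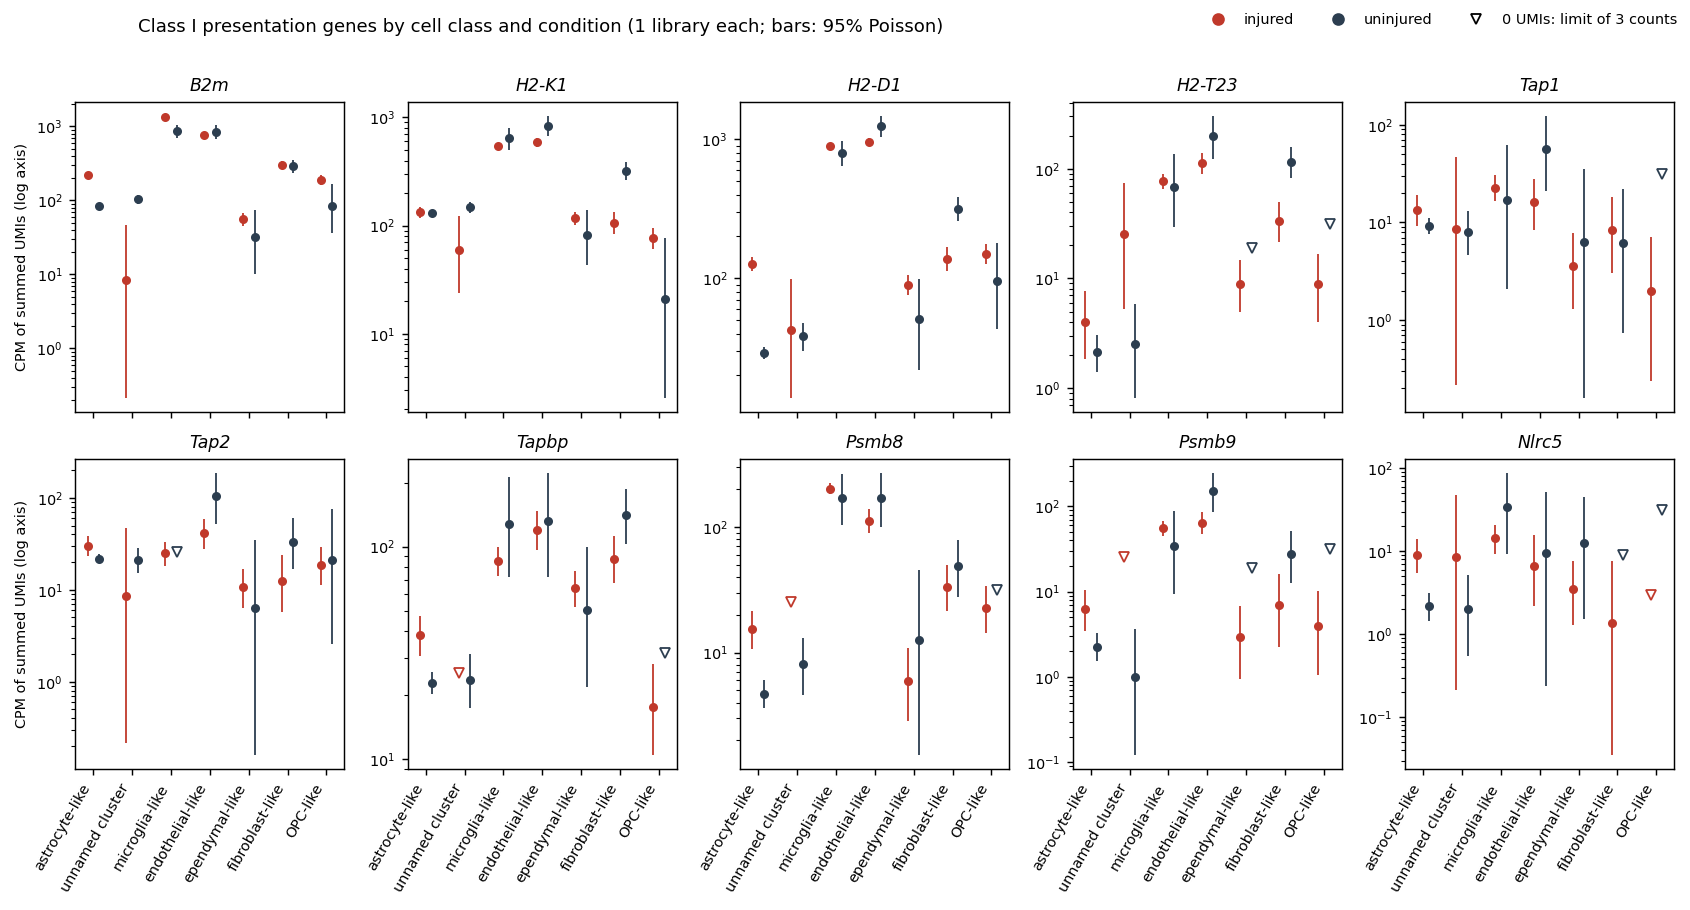
CPM of each class I presentation gene (log axis) by cell class in the injured (red) and uninjured (dark) library, with 95% Poisson intervals as bars and open triangles at the limit of 3 counts where a class had no UMI. In the injured library microglia-like and endothelial-like cells sit highest for B2m, H2-K1, H2-D1, H2-T23, Psmb8 and Psmb9, and in astrocyte-like cells the red H2-D1 point lies well above the dark one while those of H2-K1 lie close together.

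The heavy chains followed a similar order. H2-D1 was at 959 CPM in endothelial-like and 904 in microglia-like cells, which did not differ beyond counting error, and between 89.7 and 150 in the other classes of at least 20 cells. H2-K1 was at 591 and 547 CPM in endothelial-like and microglia-like cells and between 76.6 and 133 in the other classes of at least 20 cells. H2-T23 was at 112 CPM in endothelial-like and 76.7 in microglia-like cells, and at 4.05 CPM (9 UMIs) in astrocyte-like cells. The immunoproteasome gene Psmb8 had 201 CPM in microglia-like and 112 in endothelial-like cells against 15.3 in astrocyte-like and 5.90 in ependymal-like cells.

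For the transporter genes and Nlrc5, no neighbours in the order of classes were apart beyond counting error. Tap2 was at 41.4 CPM in endothelial-like, 24.9 in microglia-like and 30.1 in astrocyte-like cells, 18.6 in OPC-like, 12.5 in fibroblast-like and 10.6 in ependymal-like cells. Tap1 was at 22.8 CPM in microglia-like, 16.0 in endothelial-like, 13.5 in astrocyte-like, 8.32 in fibroblast-like, 3.54 in ependymal-like and 1.96 in OPC-like cells, with microglia-like and endothelial-like cells on top as for B2m. Nlrc5 was at 14.3 CPM (27 UMIs) in the microglia-like class and at 9.0 CPM (20 UMIs) in the astrocyte-like class.

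To count members against all genes, a gene was called higher or lower when its log2 ratio of CPM + 1 reached 1 in either direction and its mean over both groups was at least 5 CPM. Against astrocyte-like cells of the injured library, microglia-like cells had 7 of 10 members higher and 0 lower, where 19.3% of all genes were higher and 31.6% lower. The 7 were B2m (5.98-fold, 95% interval 5.43 to 6.60), H2-K1 (4.12-fold), H2-D1 (7.15-fold), H2-T23, Tapbp (2.24-fold), Psmb8 (13.1-fold, 9.24 to 19.3) and Psmb9. In endothelial-like cells the count was again 7 of 10 higher and 0 lower, against 20.5% and 26% of all genes, with H2-D1 at 7.58-fold and H2-T23 at 27.7-fold (13.9 to 62.7) of the astrocyte-like level.

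Fibroblast-like cells of the injured library had 3 of 10 members higher (H2-T23, Tapbp and Psmb8) and 2 lower (Tap2 and Nlrc5), where 21% and 21.8% of all genes were higher and lower. Tap2 had 9 UMIs and Nlrc5 1 UMI in these cells. Ependymal-like cells had 0 of the 9 members that passed the level filter higher and 5 lower, against 19.4% and 17.6% of all genes. The 5 were B2m, Tap1 (6 UMIs in these cells), Tap2 (18 UMIs), Psmb8 (10 UMIs) and Nlrc5 (6 UMIs). B2m was at 0.249 of the astrocyte-like level there (0.198 to 0.311), while Tapbp was at 1.67 times that level. OPC-like cells had 0 of 9 higher and 2 lower (Tap1 with 2 UMIs and Tapbp with 18 UMIs in these cells), against 23.4% and 14.1% of all genes.

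Within astrocyte-like cells, the injured library had more B2m, H2-D1, Psmb8 and Nlrc5 than the uninjured library and H2-K1 within counting error, although among cells scored male H2-K1 was also above the uninjured level (ratio 1.32, 1.11 to 1.55). Of the 10 members, 8 passed the level filter, of which 4 were higher and 0 lower. Of all 11054 genes that passed, 12.3% were higher and 7.23% lower. The median log2 ratio of the 8 was 1.06, beside 0.007 over all genes. Psmb8 and Nlrc5 were under 5 CPM in the uninjured library and passed the filter only through the injured one. The count and the median therefore depend partly on the filter.

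**Figure D2:**
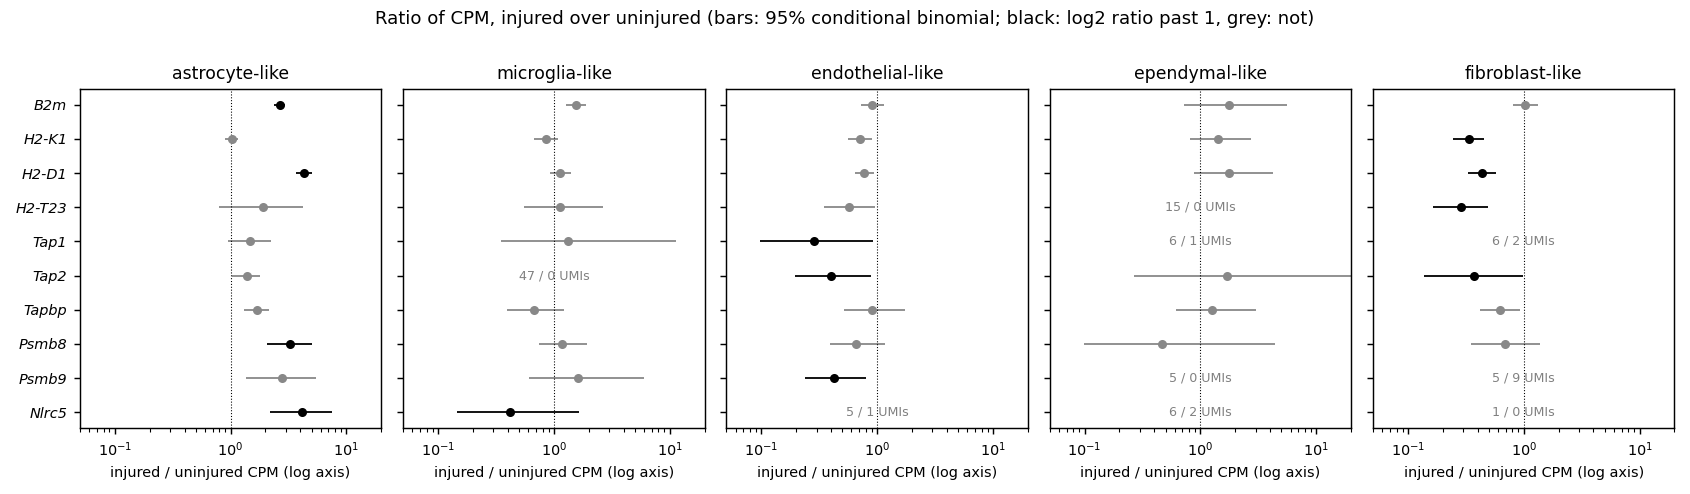
Ratio of CPM in the injured over the uninjured library (log axis) for each class I presentation gene in 5 cell classes, with 95% conditional binomial intervals as bars, black where the log2 ratio reached 1 and the gene passed the level filter and grey otherwise, and UMI counts (injured / uninjured) in place of a point where a group had 0 UMIs or both had under 10. In astrocyte-like cells H2-D1, Nlrc5, Psmb8 and B2m lie to the right of 1 while H2-K1 lies on it, and in fibroblast-like cells H2-K1, H2-D1 and H2-T23 lie to the left.

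The light chain B2m had 223 CPM after injury against 84.0 CPM without it, a ratio of 2.65 (2.38 to 2.95). H2-D1 was at 126 and 29.1 CPM, a ratio of 4.34 (3.71 to 5.08). H2-K1 was at 133 and 129 CPM, a ratio of 1.03 (0.903 to 1.16). The intervals of B2m and H2-D1 lay wholly above 1, and that of H2-K1 held 1. H2-T23 had 9 and 27 UMIs, at 4.05 and 2.12 CPM, and a difference was not detectable at this depth (ratio 1.91, 0.791 to 4.19).

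Of the peptide cutting genes, Psmb8 was at 15.3 and 4.71 CPM (34 and 60 UMIs), a ratio of 3.25 (2.07 to 5.03). Psmb9 was at 6.30 and 2.28 CPM (14 and 29 UMIs), a ratio of 2.77 (1.35 to 5.41), and was below the level filter. Of the peptide loading genes, Tapbp was at 38.2 and 22.8 CPM, a ratio of 1.67 (1.30 to 2.14), and Tap2 at 30.1 and 21.9 CPM, a ratio of 1.38 (1.04 to 1.80). Tap1 was at 13.5 and 9.18 CPM, with an interval that held 1 (ratio 1.47, 0.950 to 2.21). The transactivator Nlrc5 was at 9.0 and 2.20 CPM (20 and 28 UMIs), a ratio of 4.10 (2.19 to 7.53). Its injured UMIs came from 14 of 414 cells, and 5 cells held 55% of them. Thinned to 1000 UMIs, 0.528% of injured and 0.298% of uninjured cells held Nlrc5, with intervals that overlap (0.0640 to 1.89% and 0.143 to 0.548%). Of the 10 ratios, those of H2-K1, H2-T23 and Tap1 had intervals that held 1. Some log2 ratios turned negative under other settings. These were H2-K1 (-0.35) and Tap1 (-0.24) thinned to 1000 UMIs, Tap2 (-0.33) and Psmb8 (-0.41) at resolution 1.0, and H2-T23 (-0.55) in male cells. Of the 8 members that passed the level filter, 6 had an interval above 1, beside 31% of all genes. Of the 6, Psmb8 and Nlrc5 passed the filter only through the injured group. Among cells scored male the Tap2 interval held 1 (ratio 1.20, 0.771 to 1.79).

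Most of the injured astrocyte-like cells came from another cluster than the uninjured ones. Tgm1, Gfap and Lcn2 led cluster 1, to which 331 of the 414 injured cells (80.0%) but 15 of the uninjured cells belonged. The injured cells inside it had 241 CPM of B2m and those outside it 58.2 CPM (482 and 13 UMIs), a ratio of 4.14 (2.40 to 7.84). H2-D1 was at 137 CPM inside and 35.8 outside (273 and 8 UMIs), a ratio of 3.81 (1.91 to 8.92). H2-K1 was at 137 CPM inside and 98.5 outside, which did not differ beyond counting error (ratio 1.39, 0.897 to 2.25). Median depth was 4012 UMIs inside and 1959 outside. Of the injured cells outside, 43 were in cluster 5 and 20 in cluster 4. Their B2m was 14.0 and 31.6 CPM (1 and 2 UMIs), beside 26.0 and 78.7 CPM in uninjured cells of these clusters. B2m of the injured cells outside cluster 1 was not above the 84.0 CPM of all uninjured astrocyte-like cells.

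**Figure D3:**
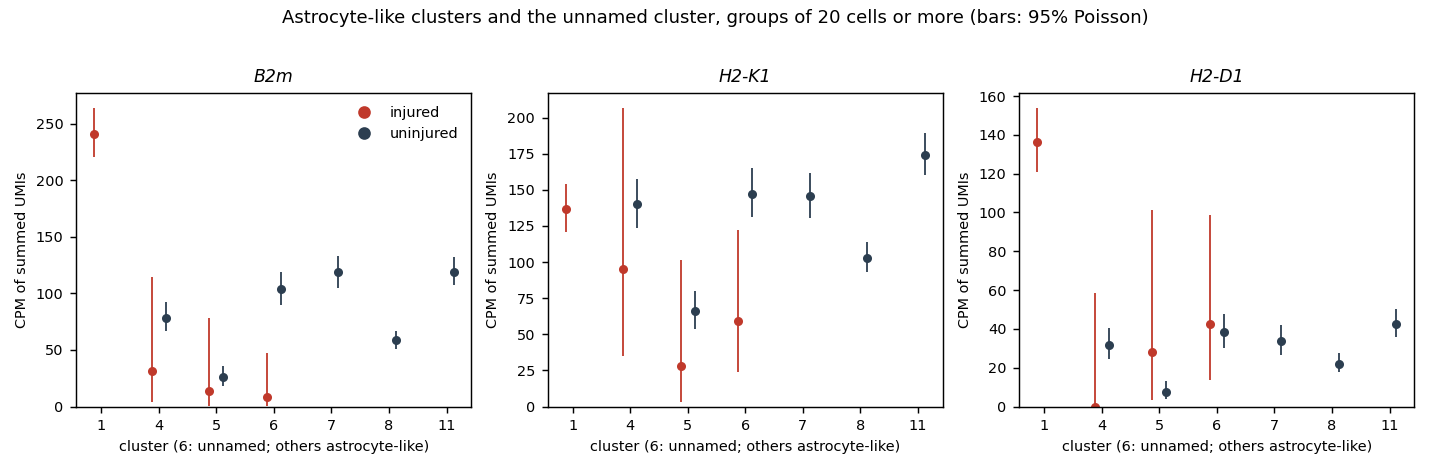
CPM of B2m, H2-K1 and H2-D1 in each astrocyte-like cluster and in the unnamed cluster 6, for groups of 20 cells or more, with injured cells in red, uninjured cells in dark and 95% Poisson intervals as bars. For B2m and H2-D1 the injured cells of cluster 1 lie above every uninjured cluster, and for H2-K1 they lie within the range of the uninjured clusters.

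The uninjured astrocyte-like clusters also differed among themselves. Their B2m ran from 26.0 CPM in cluster 5, whose leading genes include mitochondrial transcripts and whose cells had a median of 1839 UMIs, over 58.4 in cluster 8 and 78.7 in cluster 4 to 119 in both clusters 7 and 11. H2-K1 ran from 65.9 CPM in cluster 5 to 174 in cluster 11, and H2-D1 from 7.32 in cluster 5 to 42.5 in cluster 11. The B2m and H2-D1 levels of the injured cells in cluster 1 were above each of these. How finely cells were clustered decided this comparison: at resolution 1.0 the cells of cluster 1 formed a cluster that missed the marker score for a name, 72 injured cells stayed astrocyte-like, and their B2m was 97.2 CPM, with 2 members higher instead of 4. The share of all genes called was not computed at that resolution.

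The proportion of the 2 classical heavy chains differed between the libraries in astrocyte-like cells. H2-K1 UMIs per H2-D1 UMI were 4.45 in the uninjured library (1650 and 371 UMIs, 3.97 to 4.99) and 1.05 in the injured library (295 and 281 UMIs, 0.889 to 1.24), so that the ratio after injury was 0.236 of that before (0.193 to 0.289). This ratio was singled out after the values of both genes had been seen. It compares counts at 3' ends that were not divided by length, so only its changes are read. In injured cells of cluster 1 it was 1.0 (273 and 273 UMIs, 0.842 to 1.19). Injured astrocyte-like cells outside cluster 1 had 22 H2-K1 and 8 H2-D1 UMIs. Cluster 1 held 15 uninjured cells, so a change within it was not read.

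**Figure D4:**
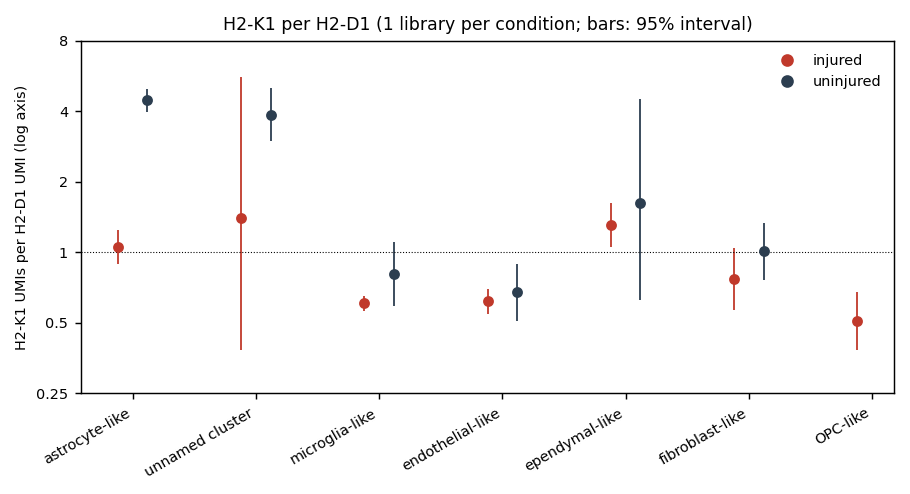
H2-K1 UMIs per H2-D1 UMI (log axis) in each cell class with at least 10 UMIs of both genes together, injured in red and uninjured in dark, with 95% intervals as bars. The uninjured astrocyte-like cells and the uninjured cells of the unnamed cluster sit near 4, and all other groups lie at or below 1.63.

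The proportion was 4.10 or more in the 5 astrocyte-like clusters with at least 20 uninjured cells, which leaves out the 15 uninjured cells of cluster 1. It was 4.42 in cluster 4, 4.31 in cluster 7, 4.65 in cluster 8, 4.10 in cluster 11 and 9.0 in cluster 5 (99 and 11 UMIs), and 3.86 in the uninjured cells of the unnamed cluster (2.99 to 5.03). In the same uninjured library it was 1.01 in fibroblast-like (0.762 to 1.34), 0.806 in microglia-like and 0.674 in endothelial-like cells (0.509 to 0.889). In uninjured ependymal-like cells it was 1.63 (13 and 8 UMIs), with an interval that held the astrocyte-like value of 4.45 (0.624 to 4.52). In the injured library it was 1.31 in ependymal-like (1.05 to 1.63), 0.770 in fibroblast-like, 0.617 in endothelial-like, 0.604 in microglia-like and 0.510 in OPC-like cells. In endothelial-like, microglia-like, fibroblast-like and ependymal-like cells the change between libraries had an interval that held 1.

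Both chains belong to a family of alike genes, and the sources used here did not give the class I haplotype of the mice. In the annotated transcripts, 0 of 411 stretches of 90 bases in the last 500 bases of H2-K1 and of H2-D1 were found exactly in a transcript of any other gene. For H2-T23 it was 55 of 411 (13.4%), shared with H2-T-ps, Hook2 and Rab33b. Reads from another haplotype were not modelled. Among injured astrocyte-like cells scored male the H2-K1 to H2-D1 ratio was 1.56 (1.22 to 2.01), and among those scored female 0.811 (0.587 to 1.12), with H2-K1 at 170 and 113 CPM. Both lay below the uninjured value, which came from 2340 cells scored male, 2 scored female and others without a sex score. In the other classes of the injured library the male and female ratios were closer, at 0.575 and 0.643 in microglia-like, 0.582 and 0.701 in endothelial-like and 1.29 and 1.13 in ependymal-like cells.

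Per cell, more injured than uninjured astrocyte-like cells held a B2m or H2-D1 molecule. B2m was found in 188 of 414 injured cells (45.4%, exact 95% interval 40.5 to 50.3%) and in 822 of 3421 uninjured cells (24%, 22.6 to 25.5%). With each cell thinned to 1000 UMIs, which left out 35 injured and 67 uninjured cells, the shares were 14.8% (11.4 to 18.8%) and 7.57% (6.70 to 8.52%). H2-D1 was found in 11.3% and 2.59% of thinned cells, and H2-K1 in 10.0% and 12.2%, with intervals that overlap for H2-K1 only. No cell class here should lack class I genes, so there is no class to give their background. The 5 cells with the most B2m held 13.3% of its UMIs in the injured and 2.80% in the uninjured group.

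The immunoproteasome genes were read against the constitutive subunits they replace, Psmb8 against Psmb5 and Psmb9 against Psmb6, with Psmb10 against Psmb7 beside them. In astrocyte-like cells Psmb8 per Psmb5 UMI was 0.0895 after injury (0.0611 to 0.127) and 0.0529 without (0.0401 to 0.0686), a change of 1.69 (1.06 to 2.67). Psmb9 per Psmb6 changed by 1.28 (0.617 to 2.53) and Psmb10 per Psmb7 by 0.863 (0.653 to 1.13), both with intervals that held 1. The constitutive subunits were themselves at higher levels, with ratios of 1.92 for Psmb5, 2.17 for Psmb6 and 1.54 for Psmb7. In microglia-like cells of the injured library Psmb8 per Psmb5 was 1.55 (1.32 to 1.83), in endothelial-like cells 0.785 (0.583 to 1.05) and in ependymal-like cells 0.0422 (0.0200 to 0.0790). In fibroblast-like cells it was 0.166 after injury and 0.571 without, a change of 0.292 (0.129 to 0.666).

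The same comparison was made in the other classes, and whether a class differed from astrocyte-like cells was not tested. In fibroblast-like cells the injured library had 0 of the 9 members that passed the level filter higher and 5 lower, where 14.4% of all genes were higher and 16.8% lower. H2-K1 had 107 CPM after injury against 320 CPM without it, a ratio of 0.334 (0.246 to 0.452). H2-D1 was at 139 and 317 CPM, a ratio of 0.438 (0.329 to 0.582), and H2-T23 at 33.3 and 116 CPM, a ratio of 0.288 (0.165 to 0.492). Tap2 (9 and 11 UMIs) and Psmb9 (5 and 9 UMIs) completed the 5. B2m was at 302 and 292 CPM, a ratio of 1.03 (0.810 to 1.33). With no filter on cells, 81 injured cells were fibroblast-like instead of 43. The log2 ratio was then -0.66 for B2m, -2.93 for H2-K1 and -2.59 for H2-D1, beside 0.05, -1.57 and -1.19 with the filter.

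Of the 2 fibroblast-like clusters, 1 held uninjured cells only. Within the cluster found in both libraries (43 injured and 47 uninjured cells) H2-K1 had a ratio of 0.279 (0.193 to 0.406), H2-D1 of 0.348 (0.246 to 0.496) and H2-T23 of 0.310 (0.154 to 0.648). Median depth was 11336 UMIs in the injured and 3073 in the uninjured fibroblast-like cells. With the 5% of cells with the highest Scrublet scores left out, 24 injured fibroblast-like cells remained and 1 member was lower instead of 5. The share of all genes called was not computed without these cells.

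In endothelial-like cells 0 of 10 members were higher and 3 lower (Tap1, Tap2 and Psmb9), where 13.2% of all genes were higher and 20.4% lower. H2-K1 was at 591 and 840 CPM, a ratio of 0.705 (0.560 to 0.895), and H2-D1 a ratio of 0.770 (0.639 to 0.934), neither past the fold, while B2m at 761 and 840 CPM had a ratio of 0.906 (0.724 to 1.15). In microglia-like cells B2m was at 1332 and 864 CPM, a ratio of 1.54 (1.26 to 1.90), while H2-K1 had a ratio of 0.852 and H2-D1 of 1.14, both with intervals that held 1. Markers of other cell types moved in this class too, with the neutrophil list at 424 CPM after injury and 25.7 without it (4 and 1 of 6 markers found), the macrophage list at 871 and 1616 CPM (7 and 5 of 7) and the lymphocyte list at 1.06 and 85.5 CPM (1 and 2 of 6). Their part in the result was not tested. By the call rule 1 of 10 members was higher (Tap2, 47 and 0 UMIs) and 1 lower (Nlrc5, 27 and 4 UMIs), against 16.3% and 24.2% of all genes, and for both the interval of the ratio held 1. The 31 uninjured microglia-like cells held 116919 UMIs, which limits these comparisons.

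In ependymal-like cells B2m was at 55.5 and 31.5 CPM, H2-K1 at 117 and 82.0 CPM and H2-D1 at 89.7 and 50.5 CPM, with intervals of the ratio that held 1. By the call rule 0 of the 7 members that passed the level filter were higher and 1 lower (Nlrc5, 6 and 2 UMIs), against 11.5% and 15.2% of all genes. OPC-like and mural-like cells had 14 and 3 uninjured cells and were not compared between libraries. An interval above 1 in astrocyte-like cells and below 1 in another class was found for 3 of the 8 members that passed the level filter in astrocyte-like cells (H2-D1, Tap2 and Tapbp), beside 6.71% of all genes. Among astrocyte-like cells scored male the Tap2 interval held 1.

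Genes around the pathway were read in the astrocyte-like cells in 7 lists. Interferon stimulated genes had 6 of the 7 that passed the level filter higher and 0 lower, beside 12.3% and 7.23% of all genes, with a median log2 ratio of 2.59. They were Ifitm3, which blocks virus entry, at 108 and 4.94 CPM, the tethering factor Bst2 at 44.1 and 6.51 CPM, Ifit3 at 36.9 and 9.57 CPM, the ubiquitin-like Isg15 at 18.0 and 1.10 CPM, the GTPase Gbp2 at 16.6 and 1.10 CPM and Ifit1 at 9.90 and 1.49 CPM. Oasl2 was at 5.85 and 4.47 CPM, and Usp18 was below the filter. Ifitm3, Isg15, Gbp2, Ifit1 and Oasl2 were under 5 CPM without injury, so they passed the filter only through the injured group. The count and median of this list therefore depend partly on the filter.

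**Figure D5:**
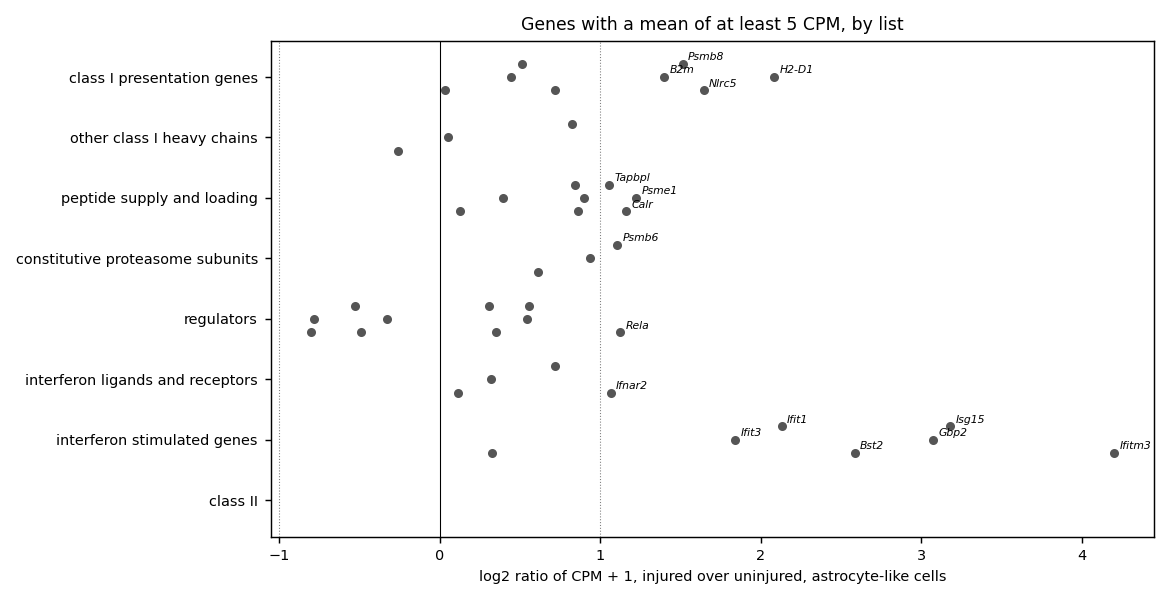
Log2 ratio of CPM + 1, injured over uninjured, in astrocyte-like cells for the class I presentation genes and 7 lists of related genes, 1 point per gene with a mean of at least 5 CPM, named where the ratio reached 1 (dotted lines). Interferon stimulated genes lie furthest right, between 1.84 and 4.20 for all but Oasl2, and no class II gene passed the level filter.

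The ligands were near 0. Ifng had 0 UMIs after injury and 1 without it, and Ifnb1 had 0 in both groups, where a count of 0 allows up to 1.35 CPM after injury and 0.235 CPM without it (3 counts over the group). Of the 4 receptor genes, Ifnar2 was higher at 81.9 and 38.6 CPM, and Ifngr2 (1.73, 1.12 to 2.60), Ifngr1 (1.26) and Ifnar1 (1.09) were not past the fold. Among the regulators 1 of 10 was higher (12.3% of all genes were), the NF-kB subunit Rela at 25.6 and 11.2 CPM, and 0 were lower. Of those not past the fold, Stat2, which carries interferon signals, was at 17.5 and 31.4 CPM and Irf1 at 8.10 and 5.18 CPM.

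Of the genes for peptide supply and loading 3 of 8 were higher and 0 lower, beside the same 12.3% and 7.23% of all genes, with a median log2 ratio of 0.88. The chaperone Calr was at 365 and 163 CPM, the proteasome activator Psme1 at 53.5 and 22.4 CPM and the tapasin relative Tapbpl at 13.9 and 6.20 CPM. Of the constitutive proteasome subunits 1 of 3 was higher. Of the other heavy chains, 0 of the 3 that passed the filter were higher or lower: H2-T22 had a ratio of 1.86 (1.24 to 2.73), Mr1 of 1.04 and H2-M3 of 0.819. The 4 class II genes, which present to CD4 T cells, had between 1 and 4 UMIs each in either library.

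Microglial RNA in the astrocyte-like cells moved with the result. A UMI of C1qa, C1qb, Tyrobp, Csf1r or Cx3cr1 was found in 56 of the 414 cells after injury (13.5%), against 47 of the 3421 without it (1.37%). The full microglial marker list had UMIs for 6 of 8 genes at 159 CPM in the injured cells, with Tmem119 and Csf1r at 0, and for 7 of 8 at 97.0 CPM in the uninjured cells. Scaled by the 8 genes used to trace carry-over, the injured astrocyte-like cells held 0.282% of the microglia-like level, which would bring 1.69% of their B2m, 2.02% of their H2-D1 and 3.71% of their Psmb8 UMIs. Without the cells that held a microglial marker UMI, the log2 ratio was 1.33 for B2m, 2.14 for H2-D1, 0.006 for H2-K1, 1.37 for Psmb8 and 1.90 for Nlrc5, beside 1.40, 2.08, 0.035, 1.51 and 1.64 with them. Endothelial markers (4 of 6 found after injury, 5 of 6 without) stood at 17.1 and 4.24 CPM, and their part in the result was not tested.

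In cells scored male, the log2 ratio of astrocyte-like cells was 1.25 for B2m, 1.96 for H2-D1, 0.39 for H2-K1, 1.36 for Psmb8 and 2.20 for Nlrc5. The H2-K1 interval, which held 1 over all cells, lay above 1 there (170 and 129 CPM, 126 and 2340 cells). The Tap2 interval, which lay above 1 over all cells, held 1 there (ratio 1.20, 0.771 to 1.79). Psmb9 passed the level filter there, only through the injured cells, and was called higher (8.04 and 2.34 CPM, 8 and 23 UMIs, ratio 3.43, 1.33 to 7.95). The injured astrocyte-like cells scored male had 201 CPM of B2m and those scored female 261 CPM (223 to 304). In microglia-like cells the order was the other way round, at 1429 CPM in cells scored male and 1198 in those scored female. The animals behind each cell were not known, so sex and animal cannot be told apart.

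Over 11 groups of class and condition, the members moved together to unequal degrees. The Pearson correlation of a member's log level with the mean of the other members was 0.974 for Psmb9, 0.952 for H2-D1, 0.942 for H2-K1, 0.912 for Psmb8 and 0.904 for B2m, and lowest for Tap2 (0.142) and Nlrc5 (0.289). Of 8680 genes ranked by their likeness to the mean of the members over the same groups, the nearest were Srgn, a proteoglycan core protein of blood and endothelial cells (0.977), Cd34 (0.969), Smagp (0.954), Fam129a (0.952) and Xdh (0.952), followed by Def6, Lgals9, Wasf2, Slfn5 and Adipor1 (0.946). The groups share 2 libraries, differ in depth and were not independent, so these values describe the groups only.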

How the data were processed

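The authors deposited 1 matrix of raw UMI counts per condition, with gene and enhancer barcode features in the same cells, of which only the gene features were used. Cell Ranger is named as version 7.1.0 in the matrix header and as 8.0.1 in the submitters' processing notes, and the authors deposited the counts without normalisation. The use of intronic reads and of strand in counting is not given in the sources used here. Among 32285 Ensembl identifiers, 32158 (99.6%) matched GENCODE M21 on GRCm38, the source of the positions.

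The study's own limits on cells (above 500 and below 50000 gene UMIs) were applied, which removed 40 of 919 injured and 0 of 4159 uninjured barcodes. Clustering by the Leiden method at resolution 0.5, on 15 neighbours in 15 principal components of 2000 variable genes (log values after scaling each cell to 10000 UMIs), gave 14 clusters (scanpy 1.11.5, igraph 0.11.9, Python 3.11.15). Clustering did not use the members, the context genes or the reporter and virus transcripts. A cluster took the class with the highest mean marker score above 0.2, provided 3 or more of its markers were seen in 10% of cells or more and its 10 leading genes held no more markers of another class. The leading genes were limited to those found in 10% of cells after the data had been seen. This named 13 clusters in 7 classes. Scrublet marked 2 of 5038 cells (0.0397%), too few for the caller to have worked, and no doublets were removed.

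UMI sums have exact Poisson, ratios of sums exact conditional binomial and shares of cells Clopper-Pearson 95% intervals, and with 1 library per condition no p-values were computed. Log2 ratios had 1 CPM added, and the ratios printed beside them had none. Classes with at least 20 cells in both libraries were compared. A limit for 0 counts was set at 3 counts over the group. On simulated data for the astrocyte-like comparison, with 200 of 11054 genes changed 4-fold, 99.5% of the changed genes were called and 95.8% of intervals held the true ratio. The simulated sums were drawn as Poisson counts, the model behind the intervals, without differences between cells or animals. They therefore check the computation only, and do not show how often intervals hold in real cells. Summed levels weight cells by their depth. The members, the lists, the rule for genes of like pattern (10 nearest by Pearson correlation of log levels among genes that reached 50 CPM in a group) and the motifs were chosen with earlier results of these data known. Named genes were the members, the listed context genes and those nearest genes.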

Additional observations from a re-analysis of the deposited data

Results flagged for a closer look

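In 4 members the ratio of injured over uninjured CPM had an interval above 1 in astrocyte-like cells and below 1 in another class. Of the 8 members that passed the level filter in astrocyte-like cells 3 did so (H2-D1, Tap2 and Tapbp), beside 6.71% of all genes. For H2-D1 the astrocyte-like ratio was 4.34, the endothelial-like 0.770 and the fibroblast-like 0.438. Psmb9 was at 2.77, 0.425 and 0.253, and Tap2 at 1.38, 0.399 and 0.373 in the same order of classes. Among astrocyte-like cells scored male the Tap2 interval held 1 (ratio 1.20, 0.771 to 1.79). Tapbp was at 1.67 in astrocyte-like and 0.624 in fibroblast-like cells, and thinning cells to 1000 UMIs brought its astrocyte-like log2 ratio from 0.72 to 0.07. The difference between classes was not tested, since each condition had 1 library, and the Psmb9 and Tap2 values of endothelial-like and fibroblast-like cells rest on 5 to 48 UMIs per group.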

How the results depend on the processing

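No paired analysis was possible because there was a single library on each side. Animals, sex and library cannot be told apart from injury, and for members with few UMIs the intervals are wide. The share of all genes called was not computed under the settings below. A changed count of members can therefore not be set against the change over all genes.

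At resolution 1.0 most injured cells of cluster 1 were left unnamed (310 of 331), and astrocyte-like cells then had 2 members higher instead of 4, 97.2 CPM of B2m after injury, 1.55 H2-K1 UMIs per H2-D1 UMI, and a log2 ratio of -0.41 for Psmb8. Against these cells 1 member was lower in ependymal-like cells instead of 5, with Psmb8 turned to 0.63, and 3 members were higher or lower in fibroblast-like cells instead of 5. With a pseudocount of 10 CPM the counts were 2 higher in astrocyte-like, 1 higher or lower in microglia-like and 0 lower in ependymal-like cells between libraries, and 0 lower in OPC-like, 1 lower in ependymal-like and 2 higher or lower in fibroblast-like cells against astrocyte-like cells. With 0.1 CPM, ependymal-like cells had 2 lower between libraries, as with no filter on cells, which also turned Tapbp of fibroblast-like over astrocyte-like cells to -0.53. In that comparison the missing filter also moved B2m from 0.44 to -0.29, H2-D1 from 0.13 to -1.31 and H2-K1 from -0.31 to -1.67.

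Thinned to 1000 UMIs, between libraries 3 members were lower in fibroblast-like, 2 lower in ependymal-like and 4 higher or lower in microglia-like cells, 1 was lower in ependymal-like against astrocyte-like cells, and the share of astrocyte-like cells with a B2m UMI was 14.8% after injury and 7.57% without it. Without the 5% highest Scrublet scores 1 member was lower in fibroblast-like cells between libraries and 1 lower in OPC-like against astrocyte-like cells. The OPC-like count was 4 in male cells, 5 in cells without microglial marker UMIs and 1 with the unnamed cluster counted as astrocyte-like, a setting added after the data had been seen. Without microglial marker UMIs 3 members differed in fibroblast-like against astrocyte-like cells. In male cells injured astrocyte-like cells had 201 CPM of B2m and 1.56 H2-K1 UMIs per H2-D1 UMI, and microglia-like and endothelial-like cells had too few uninjured cells to be compared.

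B2m per UMI of the carry-over genes, which for astrocyte-like cells was 2.93 after injury and 12.2 without it, became 3.69 and 17.1 with no filter on cells, 3.62 and 15.9 with at least 1000 UMIs per cell, 4 and 17.9 at resolution 1.0, 3.51 and 17.7 with the members kept for clustering, and 5.41 and 16.8 in male cells, with the lower value after injury in each of these. The cause of these moves was not tested. Of the counts and levels under an alternative, 134 stayed within 1.5 times of the reported count or within the interval of the reported level, and 37 moved. Of the values of single members, 902 stayed within the interval of the reported value and 97 moved. A further 3, of members called higher or lower, reversed their sign.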
